A study of Homo sapiens with 2 samples.

Results

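Keratins of the basal layer and of stressed epidermis were compared between SAS cells, a human squamous carcinoma line from the tongue, and eSAS cells, the population left after 5 rounds in which large SAS spheroids were caught on a filter. The set held 9 names of 30484 on the array, KRT14, KRT5, KRT15, KRT16, KRT17, KRT6A, KRT6B and the keratin-like transcripts THC2564562 and ENST00000311208, and it was read by 13 probes. The members were chosen by their measured values in an earlier reading of these same 2 arrays, so the ratios below are a description and carry no test. RNA of each cell population, taken in the log phase of growth in standard medium, was hybridised to 1 array with 1 colour, and both arrays lay on the same slide. Both groups came from a single line, the labels name no introduced allele or agent for either, and eSAS was 1 selected population. The comparison addressed whether expression differed between the selected and the parental cells.

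Keratins are the intermediate filament proteins of epithelial cells, and a filament needs a type I partner, encoded mostly on the long arm of chromosome 17, and a type II partner, encoded on chromosome 12. KRT5 and KRT14 are the pair of the basal layer of stratified epithelia, where the dividing cells sit, and KRT15 is a further type I keratin of basal and hair follicle stem cells. KRT6A, KRT6B, KRT16 and KRT17 are called stress keratins because keratinocytes switch them on after wounding and in hyperproliferation, and squamous carcinomas often carry them. The type I genes are close copies of each other, and pseudogenes of KRT16 and KRT17 also lie on chromosome 17, where the gene table of GRCh38.p14 lists 13 of them.

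Values are processed signals, the spot brightness after background subtraction by the scanner software, in arbitrary units. Log2 ratios and folds were taken after each array was set relative to its 75th percentile, 1242 for SAS and 1196 for eSAS. Signals cannot be compared between probes, only between arrays for the same probe. Each member probe was spotted once, so the error given is the scanner software's own estimate for the spot. For other probes with at least 5 usable spots the log2 ratio varied between spots of the same probe with an SD of 0.075 (211 probes), which leaves out the spread between cultures. Fewer cells with a transcript and less of it per cell cannot be told apart in such RNA.

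Of the 9 squamous epithelium markers that could be measured on both arrays without a marked spot, none differed by 2-fold. All 10 on the list, among them TP63 and DSG3, were well above background on both arrays. The list also holds genes of epithelia in general, such as EPCAM and JUP. Of the fibroblast markers, 1 of 6 was well above background in each array, COL1A1 in SAS at 15.1 and LUM in eSAS at 29.6. For leukocyte markers this was 1 of 4 on each array, namely CD14, at 215 for SAS and 233 for eSAS. For endothelium and for melanocyte markers it was 2 of 3 in SAS and 1 of 3 in eSAS.

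Of the 12 member probes without a marked spot, 5 were at least 2-fold lower in eSAS, against 1.97% of 28439 probes in all, and 1 was at least 2-fold higher, against 1.83%. The other 6 lay within 2-fold. The rule that chose the members used this contrast, so nothing is read from the excess. The median log2 ratio was -0.82 over the 12 probes and -0.01 over all probes, and 11 of the 12 were below 0, against 51.5% of all probes. The sizes were uneven: 3 probes had a fold or lower bound of more than 10 downward, of 7 such probes on the whole array, and most of the others were lower by less than 2-fold.

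**Figure D1:**
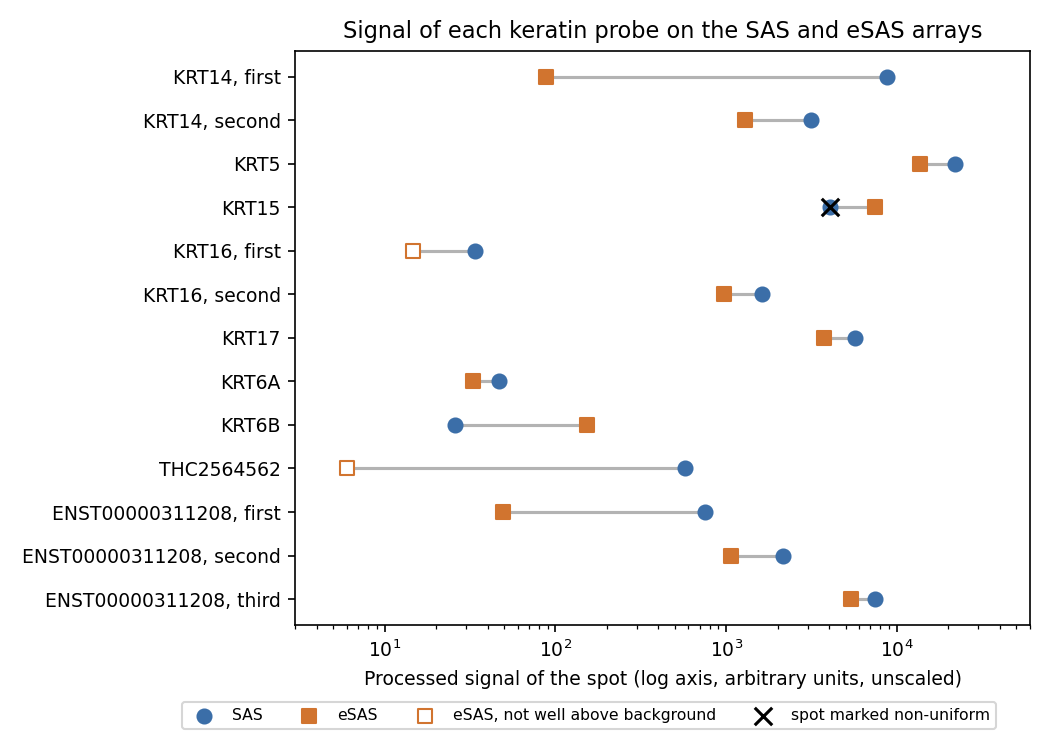
Processed signal of each of the 13 keratin probes (horizontal log axis, arbitrary units, unscaled) for SAS (circles) and eSAS (squares), 1 spot each; open squares were not well above background and the cross marks a non-uniform spot. The first KRT14 probe went from 8749 to 88.3, KRT6B went the other way from 25.9 to 153, and the KRT5, KRT17 and second KRT16 probes differed by less than 2-fold.

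KRT14, the type I keratin of the basal pair, had 2 probes. The first, with the larger difference, lay on chromosome 17 of hg18 between 36992270 and 36992890, a span of 621 bases for a probe of 60 bases, so that it crosses at least 1 intron. It gave a processed signal of 8749 (software error 875) in SAS and 88.3 (software error 9.45) in eSAS. The eSAS signal was thus 95.4-fold lower after scaling, a log2 ratio of -6.58, and remained well above background. Among the 26659 probes measured well above background on both arrays, none was lower by as much. The spot was even on both arrays: the SD of its pixels was 0.051 of their mean in SAS, where spots of similar brightness had a median of 0.11, and 0.185 in eSAS, where that median was 0.194.

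The second KRT14 probe lay at 36993074 to 36993133, beginning 184 bases beyond the end of the first, within 1 unbroken stretch of 60 bases. It gave 3136 (software error 314) in SAS and 1286 (software error 129) in eSAS. This was 2.35-fold lower, a log2 ratio of -1.23. The 7 measured spots around it had a median log2 ratio of -0.25, and the part of that in the difference was not tested. Around the first probe the median of 6 measured spots was 0.20, in the other direction. Both KRT14 probes were lower in eSAS, but the same gene kept 1.05% of its SAS signal by the first probe and 42.6% by the second. The gap of 5.34 on the log2 scale is far beyond the software errors of the 2 log2 ratios, 0.21 and 0.20, and the spot SD of 0.075. Probe sequences were not used here, so what either probe could bind besides KRT14 was not tested.

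THC2564562 is an assembled transcript that the array describes as a keratin and that sits against KRT14. Its probe covered 36992209 to 36992268 on chromosome 17, ending 2 bases short of the first KRT14 probe. The signal was 575 in SAS and 6.05 in eSAS, where it was not well above background. The eSAS signal was at least 36.5-fold lower, the bound that the lowest signal well above background there, 15.2, allows, and the measured signals alone differed by a log2 ratio of -6.52. How much lower than the bound it was cannot be told. The probe is written in ascending coordinates, whereas the other 12 member probes are written in descending ones. Over 14007 RefSeq probes whose gene has a known strand, 99.3% of those on the minus strand were written descending and 99.6% of those on the plus strand ascending. The THC2564562 probe is therefore designed to the strand opposite to KRT14, and which transcript gave its signal was not tested.

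KRT5 is the type II partner of KRT14. Its probe lay on chromosome 12 at 51194889 to 51194948, and the processed signal was 22037 (software error 2204) for SAS and 13677 (software error 1368) for eSAS. It was 1.55-fold lower in eSAS, a log2 ratio of -0.63. The difference was in the same direction as for KRT14 and smaller than by either KRT14 probe.

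KRT5 was the only member among the 35116 promoters of the RefSeq table, so its promoter alone is shown. Whether regulators of the basal pair act in this stretch was not tested. The 250 bases before its start lie at chr12:52520395-52520644 of GRCh38.p14 on the minus strand, with a match to the p53 family half-site, the kind of site that TP63 binds, in capitals.
KRT5: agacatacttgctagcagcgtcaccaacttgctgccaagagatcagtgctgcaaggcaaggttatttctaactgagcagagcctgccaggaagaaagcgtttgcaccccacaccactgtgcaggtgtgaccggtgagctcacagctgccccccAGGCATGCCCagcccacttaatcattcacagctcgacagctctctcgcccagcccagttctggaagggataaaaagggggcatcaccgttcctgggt
The half-site begins 97 bases before the start and is its own match on the other strand. It was found on either strand in 5.57% of all promoters over the same 250 bases. No match was found on either strand to TATAAA (10.72% of promoters), to the AP-1 motif TGANTCA (6.57%), to the AP-2 motif GCCNNNGGC (19.8%) or to the Sp1 motif GGGCGG (42.6%). These letters describe the window and show neither binding nor a cause. TP63 itself, the master factor of stratified epithelia, had a mean log2 ratio of -0.40 over 2 probes, which gave -0.40 each.

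KRT15 was the only basal keratin with a higher signal in eSAS, and its value is in doubt. Its probe at 36923668 to 36923727 on chromosome 17 gave 4077 for SAS and 7482 for eSAS, 1.91-fold higher, a log2 ratio of 0.93. The software had marked the SAS spot as non-uniform: its pixel SD was 0.477 of the mean, against a median of 0.117 for spots of similar brightness, and its mean pixel of 3790 was below its median pixel of 4119. The spot lay in row 488, among rows 450 to 510, which held 183 of the 194 spots marked in this way on the SAS array. With median pixels less the local background, chosen after the mark was seen, the log2 ratio was 0.78. KRT15 was left out of every count above, and it lay within 2-fold in any case.

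Of the stress keratins, 4 of 5 probes had a lower signal in eSAS, against 51.5% of all probes, and 1 a higher. Their median log2 ratio was -0.55. KRT17, a type I keratin of wounded epidermis and of carcinomas, gave 5707 (software error 571) for SAS and 3764 (software error 376) for eSAS at 37030502 to 37030561. It was 1.46-fold lower. The software error of this log2 ratio was 0.20, and 7.88% of all probes had a log2 ratio below -0.5. The difference was within 2-fold.

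KRT16, the type I partner of KRT6, had 2 probes that were both lower in eSAS. The second, at 37020246 to 37020305, gave 1611 for SAS and 975 for eSAS, 1.59-fold lower. The array lists this probe also for a clone it names MGC102966, which it describes as similar to keratin 16. The first, which spans 149 bases from 37020742 to 37020890 and so crosses an intron, was near the limit of detection. It gave 33.9 for SAS and 14.7 for eSAS, where it was not well above background, a difference of at least 2.15-fold. It was within 2-fold under every other background correction tried, for example at a log2 ratio of -0.34 with none. At these signals the direction was the same for both probes, and the size cannot be compared.

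KRT6A and KRT6B, type II keratins that pair with KRT16 and KRT17, had low signals that were well above background on both arrays. The KRT6A probe, spanning 397 bases from 51167995 to 51168391 on chromosome 12, gave 46.9 (software error 5.34) for SAS and 32.7 (software error 4.45) for eSAS. It was 1.38-fold lower, a log2 ratio of -0.46. Its accessions on the array name both KRT6A and KRT6B, so it cannot be assigned to KRT6A alone. The 6 measured spots around it had a median log2 ratio of -0.39, and the part of that in the difference was not tested.

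KRT6B was the only member without a marked spot that had a higher signal in eSAS. Its probe at 51126823 to 51126882 gave 25.9 (software error 4.26) for SAS and 153 (software error 15.8) for eSAS. The eSAS signal was 6.14-fold higher, a log2 ratio of 2.62. The median of the 3 measured spots around it was -0.31, in the other direction. The probe that also lists KRT6B was lower in eSAS, so the pair does not give 1 direction for KRT6B. The KRT6C probe, the remaining isoform of this group, was not well above background on either array, at 18.4 for SAS and 14.4 for eSAS.

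By type, all 5 unmarked probes of type I keratins (2 of KRT14, 2 of KRT16 and 1 of KRT17) were lower in eSAS, against 51.5% of all probes. Their log2 ratios ran from -6.58 to -0.55. The marked probe of KRT15, also type I, was higher in eSAS. The members were chosen by this contrast, so nothing is read from the count. Of the 3 probes of type II keratins, KRT5 and KRT6A were lower and KRT6B was higher. In the basal pair, KRT14 was 2.35-fold or 95.4-fold lower, depending on the probe, and KRT5 was 1.55-fold lower. How unevenly the partners differed thus depends on the KRT14 probe taken, and what each probe binds was not tested.

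**Figure D2:**
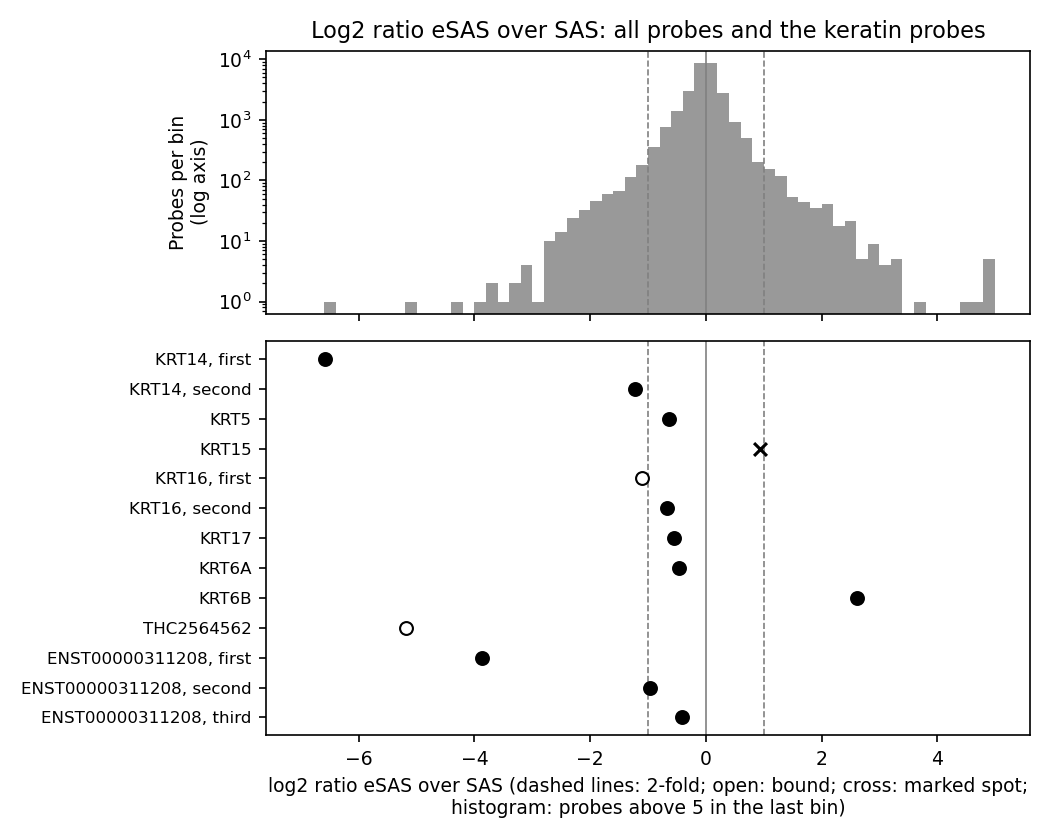
Log2 ratio eSAS over SAS (horizontal axis) of all 28439 probes well above background on at least 1 array (top, probes per bin on a log axis) and of the 13 keratin probes (bottom); open circles are bounds, the cross is the marked KRT15 spot and dashed lines are 2-fold. The first KRT14 probe at -6.58, THC2564562 at -5.19 and the first ENST00000311208 probe at -3.87 lie at the lower end of the distribution, and KRT6B at 2.62 lies on the other side.

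ENST00000311208 is a transcript model on the short arm of chromosome 17, away from KRT14, and it was read by 3 probes that disagreed. The first covered 16686042 to 16686101 and gave 754 (software error 75.5) for SAS and 49.6 (software error 6.28) for eSAS, 14.6-fold lower. The second covered 16686063 to 16686122, so that it shares 39 bases with the first, and gave 2157 for SAS and 1063 for eSAS, 1.95-fold lower. The third, which spans 667 bases from 16687089 to 16687755 across at least 1 intron, gave 7441 for SAS and 5375 for eSAS, 1.33-fold lower. All 3 were lower in eSAS, with log2 ratios of -3.87, -0.97 and -0.42. The first and the second share most of their bases and still differed in size. In this the locus was like KRT14, where 1 probe was also far lower than its neighbour. Probes of each gene are numbered from the lowest log2 ratio, so that the first is the lowest carries no information.

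MGC102966, the keratin 16-like clone, was looked at after these values were seen because it is a further keratin-like locus on the short arm of chromosome 17. Its probe at 20346747 to 20346806 gave 1567 for SAS and 431 for eSAS, 3.51-fold lower. Its other probe, from 20347135 to 20347331, had a low signal of 30.9 for SAS and 23.4 for eSAS and was 1.27-fold lower. Here too the probes of a locus gave the same direction and different sizes. Which of the near-identical genes and pseudogenes each probe read cannot be told apart without the probe sequences.

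Around the member loci, the median log2 ratio of other probes was smaller in size than that of the member probe at the centre. For KRT14 and ENST00000311208 that probe was the lowest of its gene. Some probes around KRT5 differed by more than KRT5 itself (-0.63), among them those of KRT80 at -0.95 and -0.67. Within 500 kb of the first KRT14 probe, 28 probes of other genes were well above background, 1 was at least 2-fold lower and 0 were higher, and their median log2 ratio was -0.05. The one was KRT9, a type I keratin of palm and sole epidermis and the nearest gene on the array to KRT14 outside the set, at 149.9 for SAS and 65.3 for eSAS, 2.21-fold lower. The next, KRT19, a type I keratin of simple epithelia, was bright and nearly equal at 104812 for SAS and 97635 for eSAS, a log2 ratio of -0.05. Around KRT5, 27 such probes had a median of 0.11, 0 were at least 2-fold lower and 2 were higher. These were the hair keratins KRT81, 1202 for SAS and 2545 for eSAS, and KRT83, 29.7 for SAS and 67.6 for eSAS, 2.20-fold and 2.36-fold higher. The probes nearest to KRT5, for KRT71 and KRT6C, were not well above background on either array. Around the first ENST00000311208 probe, 31 such probes had a median of -0.03. Of these, 1 was at least 2-fold lower, that for the placental cDNA CR597597, which lay 22.8 kb away and was the nearest, at 3996 for SAS and 951 for eSAS, 4.05-fold lower. The next, LOC162632, had a log2 ratio of -0.20.

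**Figure D3:**
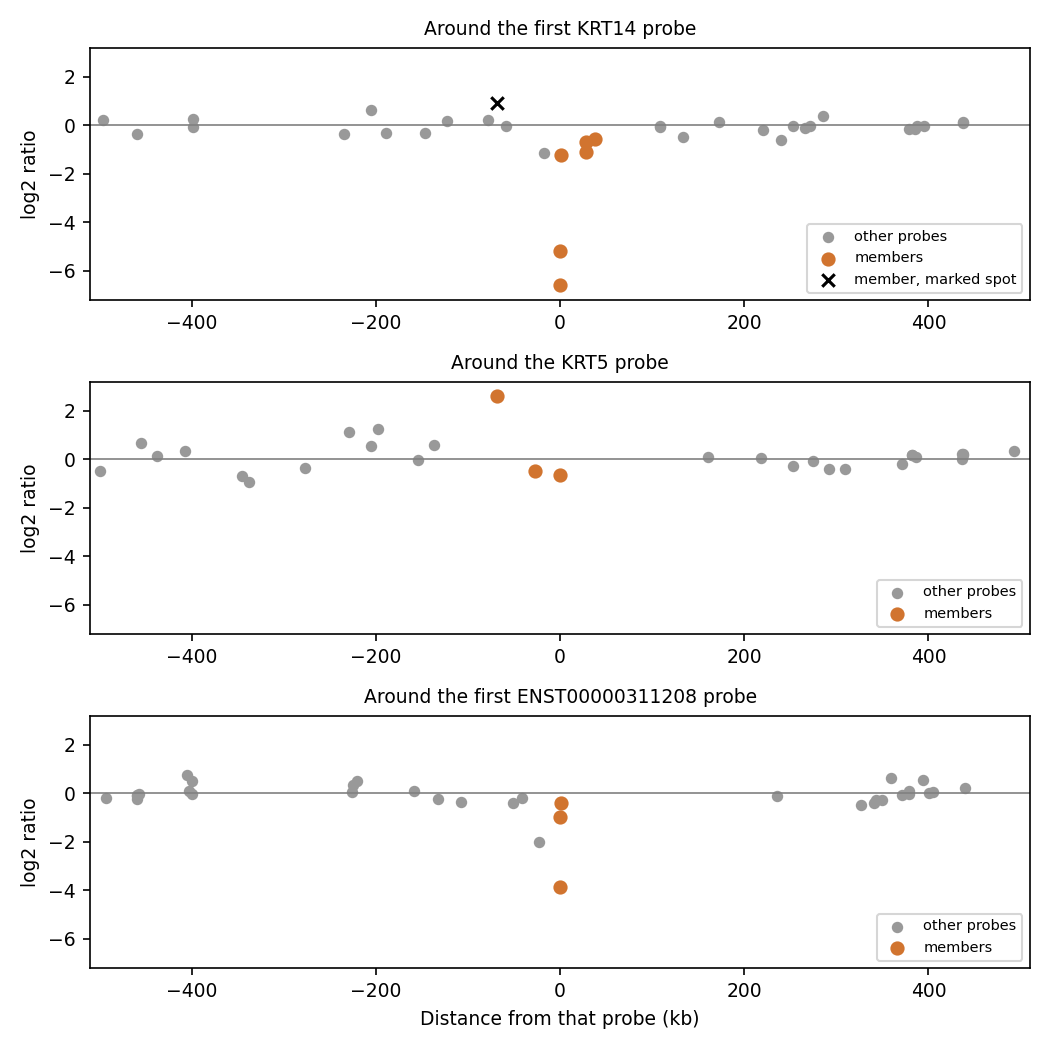
Log2 ratio eSAS over SAS of member probes (orange), of the marked KRT15 spot (cross) and of other probes well above background on at least 1 array (grey) against the distance in kb from the first KRT14 probe, the KRT5 probe and the first ENST00000311208 probe. The large differences at KRT14 and ENST00000311208 stand among neighbours with medians of -0.05 and -0.03.

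The probes most like the first KRT14 probe were taken as the 5 other probes with the largest fold, or lower bound of it, downward, a likeness in size over 2 arrays that says nothing of function. They were MMP1, an interstitial collagenase (351 for SAS and 17.6 for eSAS as geometric means of 9 unmarked spots, at least 19.2-fold lower), ACKR3, a scavenging chemokine receptor (1358 and 104, 12.6-fold), ANXA10, a member of the annexin family (283 and 21.9, 12.4-fold), ESPNL, an espin-like protein (10.8-fold), and ADGRE1, an adhesion receptor of myeloid cells (157 and 3.30, at least 9.93-fold). ACKR3, ANXA10 and ESPNL, measured on both arrays, were lower by less than the first KRT14 probe and the first ENST00000311208 probe. MMP1 and ADGRE1 were not well above background in eSAS, so their place in this order cannot be told.

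Other genes of the keratin system were taken from lists by gene, averaging the probes well above background on both arrays. Over all 19476 genes measured so, 1.37% were at least 2-fold lower and 1.01% higher. Of 5 measured keratins of simple epithelia, 0 differed by 2-fold, with a median log2 ratio of -0.05. The most extreme were KRT23 at -0.78 and KRT7 at -0.37 on the lower side and KRT18 at 0.16 and KRT8 at 0.12 on the higher. KRT8 and KRT18 are the partners of simple epithelial filaments. Of 7 measured keratins of suprabasal layers, KRT9 was the only one past 2-fold, and the median was -0.28. KRT80 was at -0.81, lower by both of its probes, while KRT10, the type I keratin of differentiating epidermis, was at -0.07 and KRT13, that of moist stratified mucosa, at 0.24.

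Of 16 regulators of basal and stress keratins, all measured, 0 differed by 2-fold and the median was -0.11. JUN, a subunit of AP-1, was lowest at -0.80, with 30043 for SAS and 16651 for eSAS as geometric means of its spots, followed by TP63. STAT3, a factor of cytokine signalling, at 0.12 and EGFR, the epidermal growth factor receptor, at 0.10 were highest.

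Of 17 genes of desmosomes and hemidesmosomes, the junctions at which keratin filaments are anchored, 1 was at least 2-fold lower and 0 were higher, with a median of -0.01. This was COL17A1, a transmembrane collagen of the hemidesmosomes of basal cells, with 357 for SAS and 63.2 for eSAS by the probe measured on both arrays, 5.44-fold lower. Its other probe was not well above background on the eSAS array, at 48.1 for SAS and 14.2 for eSAS. PKP1, a desmosomal plaque protein, was at -0.83, and the desmosomal cadherins DSC3 and DSC2 were at 0.72 and 0.35. The hemidesmosomal integrin chains ITGA6 and ITGB4, given for comparison and outside the rule, were at -0.08 and -0.16.

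Genes that accompany the stress keratins in wounded or inflamed epidermis were taken as a further list. Of 14 measured, 3 were at least 2-fold higher and 0 lower, with a median of 0.36. LCN2, an iron-scavenging secreted protein, gave 344 for SAS and 2098 for eSAS, 6.33-fold higher. The serpins SERPINB3 and SERPINB4 gave 36.7 and 37.7 for SAS and 174 and 139.8 for eSAS, 4.93-fold and 3.85-fold higher, and as near-identical neighbours they may share signal. S100A7, an antimicrobial protein of psoriatic skin, and IL36G, a cytokine of keratinocytes, were lowest, at -0.54 each. Among the stress keratins only KRT6B had a difference in the direction of LCN2 and the serpins.

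Of 10 keratin-binding proteins, 0 differed by 2-fold and the median was 0.05. EPPK1, the plakin epiplakin, was highest at 0.96, then TCHP, which binds keratin filaments, at 0.25. SFN, the 14-3-3 protein that binds KRT17, was lowest at -0.59, then TRADD, an adaptor of TNF receptor signalling, at -0.10. Of the 9 measured squamous markers the median was -0.23, from PKP1 at -0.83 and SFN at -0.59 to JUP at 0.13 and CLDN1, a tight junction claudin, at 0.57.

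**Figure D4:**
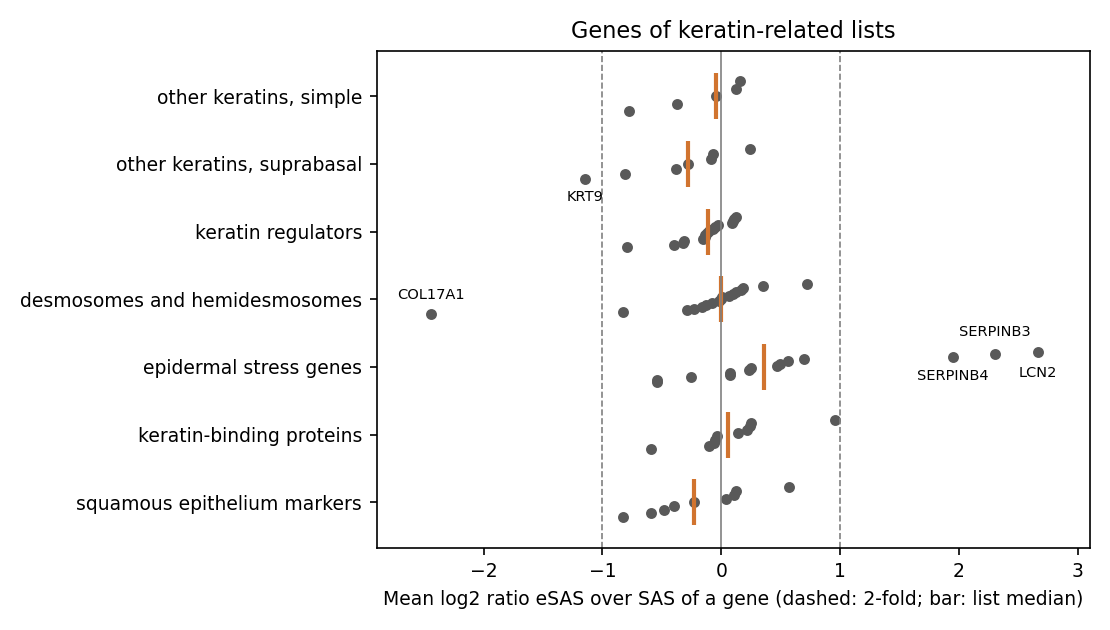
Mean log2 ratio eSAS over SAS of each measured gene (points) in 7 keratin-related lists, with the list median (orange bar) and 2-fold (dashed lines). Medians lie between -0.28 and 0.36, and the named genes, KRT9, COL17A1, LCN2, SERPINB3 and SERPINB4, are those past 2-fold.

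The member values were computed under 15 other ways of processing. The first KRT14 probe stayed between -6.63 and -3.78, the second between -1.32 and -1.20. KRT6B stayed past 2-fold, from 1.24 to 2.90. KRT5, KRT17, the second KRT16 probe and the other ENST00000311208 probes than the first were lower in eSAS under every setting run for single probes. The values that moved most were those of probes with a low signal on at least 1 array. The first KRT14 probe, at 88.3 in eSAS, was among them. With normexp background correction fitted to all spots, the THC2564562 ratio was -0.06, that of the first ENST00000311208 probe -0.21 and that of KRT6A 2.36, but under this setting the median of all probes was 0.47 and 39.6% of them were at least 2-fold higher, so these values describe the fit. With spots of marked local background left out of that fit, a setting chosen after this was seen, the median of all probes was -0.01, and the same 3 ratios were -3.16, -2.69 and -0.21.

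**Figure D5:**
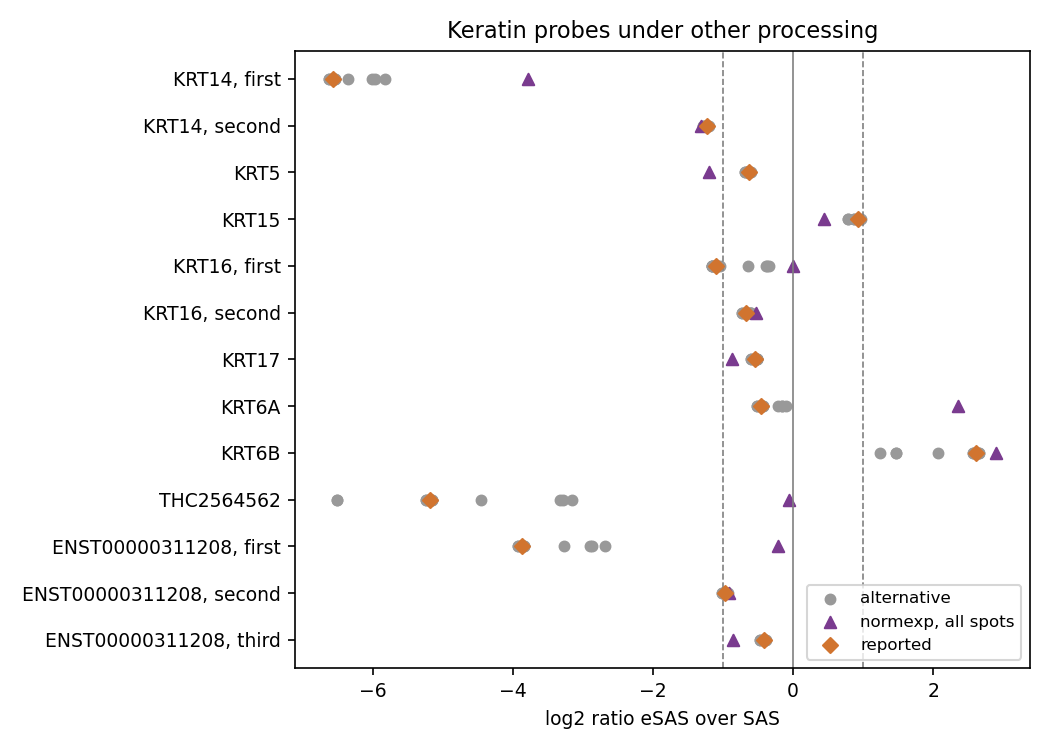
Log2 ratio eSAS over SAS of each keratin probe as reported (diamonds), under normexp fitted to all spots (triangles) and under the other settings (grey points), with 2-fold as dashed lines. The second probes of KRT14, KRT16 and ENST00000311208 hardly moved. The probes of KRT6A and THC2564562 and the first probes of ENST00000311208 and KRT14 moved most.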

How the data were processed

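SAS and eSAS RNA was measured on 1 array each. The authors deposited scanner output of Agilent Feature Extraction 10.7.3.1 with linear intensity values: the processed signal is corrected for background and spatial trends but not scaled between arrays. Other columns deposited by the authors, such as the marks for non-uniform spots and for signal well above background, were used as given. The authors' series table equals the processed signal at all 43376 spots.

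The log2 processed signal minus each array's 75th percentile was used, control and marked spots were left out, and spots of a probe were averaged. Over 50% of a probe's spots had to be well above background for the probe to count as such. For probes dim on 1 array, the fold is a bound from the higher of the probe's own signal and the lowest signal well above background there. Printed positions are the array's own, on hg18. Gene names were updated through RefSeq accessions, current symbols or unique older symbols of GRCh38.p14.

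The members and lists were chosen with earlier results of these data known. Every member probe was named. List genes were named when past 2-fold or among the 2 most extreme each way, neighbours when past 2-fold or among the 2 nearest, and of other probes the 5 with the largest fold or bound downward. With 1 array per population no test was possible, and the number of arrays limits the precision. The counting was tested on simulated data with known changes in probes measured on both arrays, which covered neither changes in dim probes nor bounds. Alternatives were other scalings, background corrections, spot statistics and filters, and gene means. R 4.3.3, limma 3.58.1 and Python 3.11.15 were used.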

Additional observations from a re-analysis of the deposited data

How the results depend on the processing

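No paired analysis was possible because each cell population had 1 array. The log2 ratio of the first KRT14 probe (-6.58 as reported) was -3.78 with normexp fitted to all spots, -5.97 with no background correction, -6.02 with uncorrected median pixels, and -3.90 as the mean of both KRT14 probes. It was -5.83 with normexp without spots of marked local background and -6.35 with median pixels less the local background, the settings chosen after seeing the data. The median over the members (-0.82) was, in the same order of settings but without gene means, -0.69, -0.63, -0.63, -0.63 and -0.65; it was -0.67 with marked spots kept and -0.65 when a probe had to be well above background on both arrays. The count at least 2-fold lower, 5 as reported, was 3 with normexp fitted to all spots, with that stricter filter (10 probes left) and with gene means (8 values). It was 4 with no background correction, with uncorrected median pixels and with each of the settings chosen after seeing the data. Without scaling and in the series table it was 6. The count at least 2-fold higher, 1 as reported, was 2 with normexp fitted to all spots. Filters and gene means act by their construction on which values enter; otherwise the cause was not tested. Over all probes, the count at least 2-fold lower went from 559 as reported to between 156 and 1536, and the count higher from 520 to between 86 and 11264, the latter with normexp fitted to all spots. The first KRT14 probe moved by more than the spot SD under 5 of the 14 settings run for single probes. Of 166 values of the other member probes under these settings, 131 moved by less than the spot SD and 35 by more. No difference of 2-fold or more changed sign. These counts are no measure of stability, because the series table repeats the setting without scaling. The lower limit, the filters and the keeping of marked spots also leave an unmarked probe measured on both arrays unchanged by construction. Those settings that moved the first KRT14 probe changed the background correction or the spot statistic. Signal over background limits the probes of low signal. The lowest signal well above background was 12.8 for SAS and 15.2 for eSAS. In SAS, the KRT16 first probe and KRT6B were near it.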
